A study of Mus musculus with 4 samples.

Results

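Tnc and Ccn1 encode matricellular proteins, secreted proteins of the extracellular matrix that signal to cells rather than bear load. They were followed here across 4 printed 2-colour cDNA arrays of mouse heart. The members were all clones whose only gene symbol on the platform was Tnc or Ccn1 (formerly Cyr61). There were 4 such clones, 3 of Tnc and 1 of Ccn1, among 16471 clones with values, and they stand for 2 of 8106 named genes. Both genes were chosen by their log ratios on these same arrays, so these values are given as a description and no test is made on them.

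Each array set the ventricles and septum of 1 high-salt mouse against those of 1 low-salt mouse. High-salt mice drank 1% NaCl and low-salt mice drank tap water. All 6 mice, 3 per group, were males aged 12 to 13 weeks and of 1 kind, 1-renin wild types from the backcross N5–6(129Ola/C57BL/6J). All had 1 kidney removed, ate food with 0.5 mg Na per g and were given the mineralocorticoid deoxycorticosterone acetate (DOCA) over 5 weeks. No group without DOCA entered the comparison. Array 1 held pair 1 and array 2 held pair 2, both with Cy3 on the high-salt RNA. Array 3 held pair 3 and array 4 held pair 2 again, both with Cy5 on the high-salt RNA. Arrays 2 and 4 are technical repeats and were averaged, so n was 3 pairs.

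Tenascin C, the product of Tnc, is a large oligomeric glycoprotein that is scarce in the resting adult myocardium and reappears around injured or overloaded muscle, made mainly by fibroblasts. It loosens the contacts of cells with fibronectin. CCN1, the product of Ccn1, is a cysteine-rich protein that binds integrins and heparan sulfate. Its gene is an immediate-early gene, transcribed within minutes of serum, stretch or growth factors, and a target of the transcription cofactors YAP and TAZ, which bind DNA through TEAD factors.

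The sequences before the start of transcription are shown as background to the lists of regulators described further on. Whether those regulators act through these stretches was not tested, and most of them have no motif among those searched. In RefSeq (GRCm38.p6), Tnc spans chr4:63959785-64047015 and Ccn1 chr3:145646971-145649985, both on the minus strand. Each stretch below is the 250 bases before the most upstream start in that table, 5′ to 3′, with motif matches in capitals.
Tnc, chr4:64047016-64047265, minus strand: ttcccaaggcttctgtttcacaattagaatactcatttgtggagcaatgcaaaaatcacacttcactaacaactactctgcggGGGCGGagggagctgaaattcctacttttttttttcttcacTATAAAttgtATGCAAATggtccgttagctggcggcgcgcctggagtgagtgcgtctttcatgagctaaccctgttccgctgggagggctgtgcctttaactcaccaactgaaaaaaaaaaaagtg
Ccn1, chr3:145649986-145650235, minus strand: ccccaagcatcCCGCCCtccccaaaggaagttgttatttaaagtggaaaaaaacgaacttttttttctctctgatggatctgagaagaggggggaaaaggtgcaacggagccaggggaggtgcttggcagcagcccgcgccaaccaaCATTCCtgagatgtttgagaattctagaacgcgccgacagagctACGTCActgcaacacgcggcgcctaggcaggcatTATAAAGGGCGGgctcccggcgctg
Capitals mark the TATA box (TATAAA), the TEAD site (GGAATG), the AP-1 site (TGANTCA), the cyclic AMP response half-site (TGACGT), the GC box (GGGCGG) or the octamer (ATGCAAAT), searched on both strands. The Ccn1 stretch held a TEAD match between 103 and 98 bases before the start and a cyclic AMP half-site match between 59 and 54. The stretch as printed reads CATTCC and ACGTCA there, since both motifs lie on the opposite strand. Its TATA box, between 25 and 20 bases before the start, abuts a GC box between 19 and 14, and another GC box lies farther out. The Tnc stretch held matches to the GC box, the TATA box letters and the octamer between 167 and 109 bases before the start. The TATAAA match lay between 126 and 121 bases before it, and whether it acts as a TATA box was not tested. Another Tnc start in the table lies downstream, and the same match is between 205 and 200 bases before that start. The table held 32851 full stretches of 250 bases, counted over all its starts, so some genes, such as Tnc, count more than once. Of these stretches 12.6% held the TEAD site, 6.47% the cyclic AMP half-site, 12.4% the TATA box, 32.7% the GC box and 1.60% the octamer. The AP-1 site (6.75%) had no match in either stretch. The octamer was added to the search after the sequence had been read.

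In every pair the high-salt mouse had the heavier heart. Heart weights were 131, 128 and 120 mg in the high-salt mice of pairs 1, 2 and 3, against 109, 107 and 108 mg in the low-salt mice. The groups did not overlap, and the difference was 18.3 mg (two-sided exact permutation p = 0.1, the smallest that 3 against 3 allows; adjusted p = 0.15 over 3 weight measures). Within pairs the difference was 22, 21 and 12 mg (two-sided exact sign-flip permutation p = 0.25, the smallest that 3 pairs allow).

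Positive log2 ratios were taken to mean more mRNA in high than in low salt. Base 2 is assumed and the direction is likely, from the wording of the array titles, but not settled. Across the 16471 clones, Pearson's r was 0.57 between the Cy3-on-high-salt arrays and 0.43 between the Cy5-on-high-salt arrays, and it ran from -0.37 to -0.073 between arrays of opposite orientation. Arrays 2 and 4, which share both mice, gave the -0.073, just above the -0.0814 of arrays 1 and 4. With the unnamed recurring spots kept in, r for arrays 2 and 4 was -0.41 and was not the highest of these. If the authors had not turned the arrays to 1 direction, a value of 1 sign on all 4 arrays would be a difference between dyes and not between diets, and the deposited ratios cannot tell these apart. The members and the list medians, with some of the genes named beside them, are therefore also given with arrays 1 and 2 turned. The ratios hold no level, so neither the amount of either mRNA nor the labelled tissue could be checked.

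Of the 3 Tnc clones, clone A (feature 14193) stood at 0.98, 1.18, 1.10 and 1.25 on arrays 1 to 4. All 4 values lay close together, above 97.1% to 99.8% of the clones on their own array. Its mean over the pairs was 1.10 ± 0.12 (SD, n = 3 pairs), a ratio of 2.14 in linear terms, and it ranked 25 among 16471 clones. Clone B (feature 4027) stood at 1.01, 1.04, -0.06 and 0.79. It was as high as clone A in pair 1, somewhat lower in pair 2 and flat in pair 3. Clone C (feature 7155) stood at 0.033, 0.76, 1.03 and 0.17, flat in pair 1 and high in pair 3. The means were 0.62 ± 0.59 for clone B and 0.51 ± 0.50 for clone C (SD, n = 3 pairs).

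Clones B and C thus split on opposite pairs, with clone A high in all 3. The 3 clone means spanned 0.59, against a median span of 0.17 over the 646 genes with 3 clones, and 97.2% of those genes had a smaller span. The platform annotation gives all 3 clones 1 transcript accession, and which stretch of the transcript each covers was not analysed here. On the repeat arrays of pair 2, the value with Cy3 on high salt minus that with Cy5 on high salt was -0.069 for clone A, 0.26 for clone B and 0.59 for clone C. The median absolute difference between these 2 arrays was 0.20 over all clones, and the 90th percentile was 0.75.

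**Figure D1:**
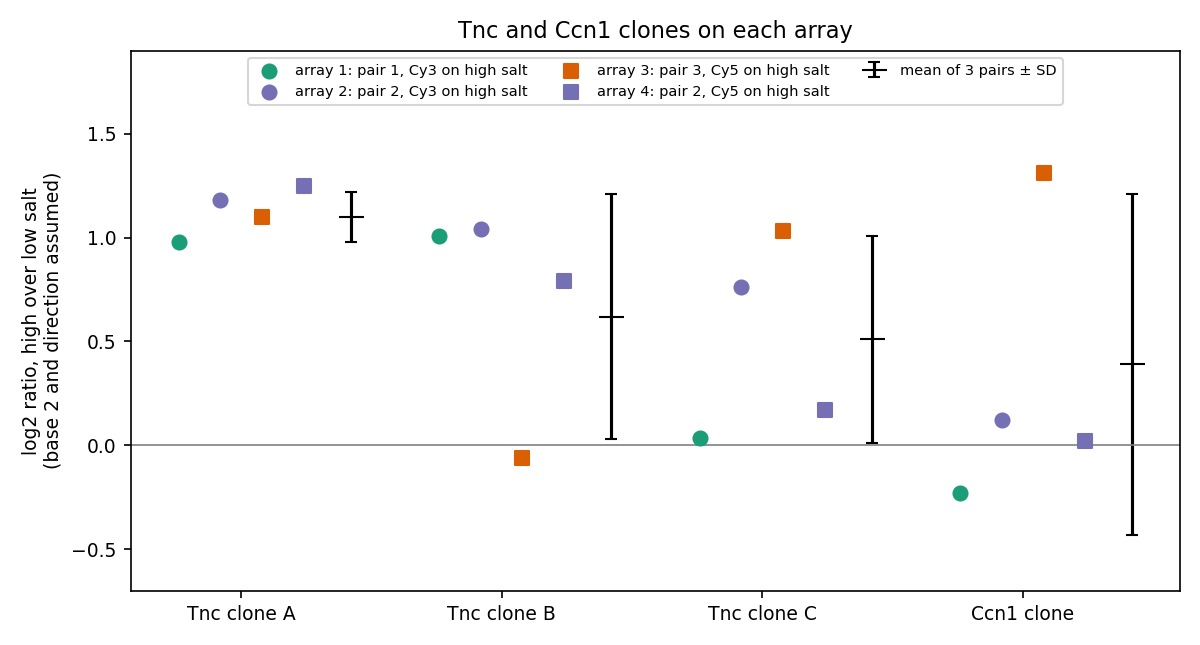
Log2 ratio (vertical axis, high over low salt, base 2 and direction assumed) of each Tnc and Ccn1 clone on the 4 arrays. Colours mark animal pairs, circles and squares the dye on high salt, and bars the mean of 3 pairs ± SD. Tnc clone A lies between 0.98 and 1.25 on every array, clone B drops to -0.06 on array 3, and the Ccn1 clone stands out on array 3 at 1.31.

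As a gene, averaged over its clones, Tnc stood at 0.67, 1.00, 0.69 and 0.74 on arrays 1 to 4. The 4 arrays were alike, although the clones behind them were not. The pair values were 0.67, 0.87 and 0.69, with a mean of 0.74 ± 0.11 (SD, n = 3 pairs), a linear ratio of 1.67, which ranked 29 among 8106 genes. That SD averages unlike clones, and 36.5% of genes had a smaller one. Tnc was above 0 on all 4 arrays, as were 568 of 8106 genes (7.01%), and so were 2 of its 3 clones, against 6.65% of clones. With arrays 1 and 2 turned, the pair values of Tnc were -0.67, -0.13 and 0.69, a mean of -0.039 ± 0.69, so its place depends on the reading of the table. With the median of the clones in place of their mean, Tnc stood at 0.98.

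Ccn1 had 1 clone (feature 4958), at -0.23, 0.12, 1.31 and 0.019 on arrays 1 to 4. Pair 3 alone was high, pair 2 was near 0 on both of its arrays, and pair 1 was below 0. On array 3 the clone lay above 99.9% of all clones, and on array 1 above 12.7%. The mean was 0.39 ± 0.82 (SD, n = 3 pairs), and 2.84% of genes had a larger SD. Without pair 3 it was -0.078, so the positive mean of Ccn1 rests on that pair. Array 3 was the sole array of pair 3, so its 2 mice cannot be told apart from that single array and its spot. Array 4, with the same dye orientation but the mice of pair 2, stood at 0.019. With arrays 1 and 2 turned, pairs 1 to 3 stood at 0.23, -0.052 and 1.31, a mean of 0.50 ± 0.72.

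The genes did not run in parallel. Tnc minus Ccn1 was 0.90 in pair 1, 0.80 in pair 2 and -0.63 in pair 3, a mean of 0.36 ± 0.85 (SD, n = 3 pairs). Pair 3, where Ccn1 exceeded Tnc, was also the pair with the smallest difference in heart weight. Heart weight per body weight was closer between pairs, with differences of 0.82, 0.84 and 0.70 mg/g in pairs 1 to 3. Body weight differed by 0.0, -0.2 and -1.4 g, high minus low salt. With 3 pairs no correlation with heart weight can be given.

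A limma test of every named gene, with Benjamini-Hochberg adjustment, called 0 of 8106 genes (0.0%). An unadjusted p under 0.05 was reached by 228 genes on the higher side (2.81%) and 213 on the lower side (2.63%). The same test over clones called 0 of 16471, with 2.82% and 2.39% at the unadjusted threshold. No gene named here and no member of any list below passed. With arrays 1 and 2 turned, 0 genes passed as well, and at the unadjusted threshold the shares were 6.97% on the higher and 13.8% on the lower side.

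**Figure D2:**
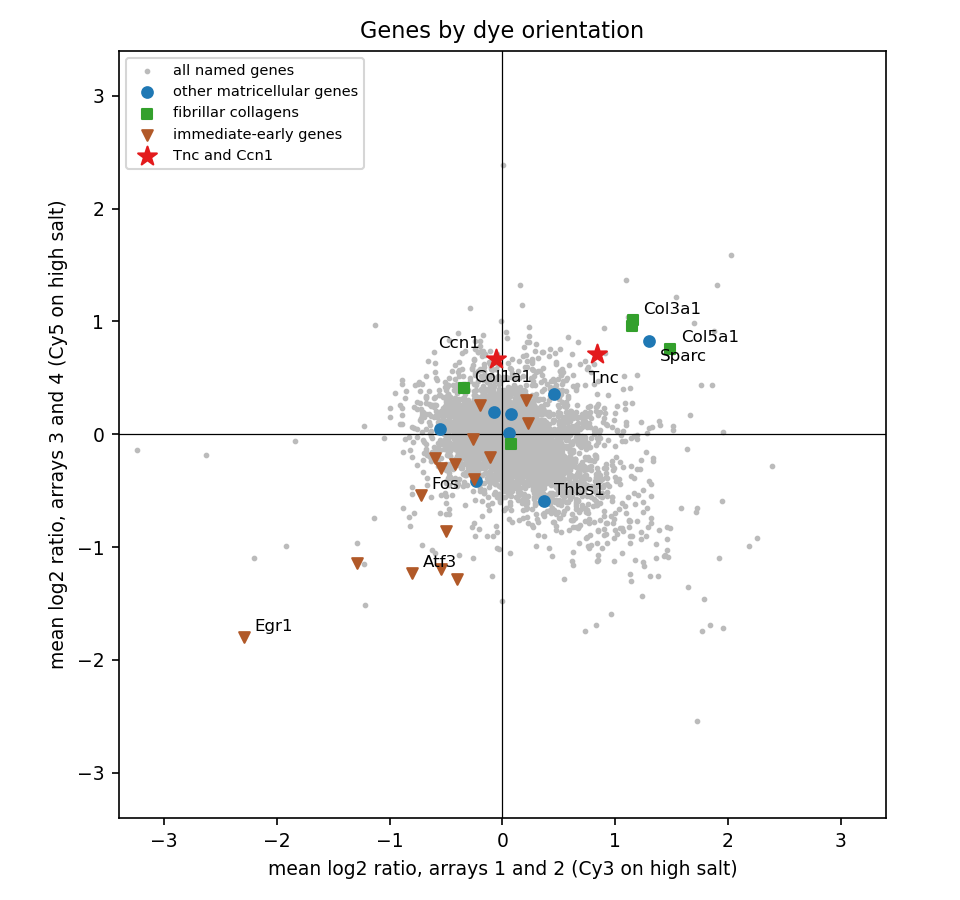
Mean log2 ratio of each named gene on the 2 arrays with Cy3 on high salt (horizontal axis) against that on the 2 arrays with Cy5 on high salt (vertical axis), both read as high over low salt. Tnc lies in the upper right at 0.84 and 0.71, near Sparc and Col3a1, and Ccn1 on the vertical axis at -0.052 and 0.67.

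Among the other matricellular genes, 8 of 21 listed were measured. Sparc, whose product binds collagen and calcium, stood at 1.44, 1.05 and 0.72 in pairs 1 to 3, a mean of 1.07 ± 0.36 (SD, n = 3 pairs), and its relative Sparcl1 at 0.38 ± 0.17. Both were above 0 on all 4 arrays, but Sparc was at -0.28 and Sparcl1 at 0.0073 with arrays 1 and 2 turned. Of the other tenascins, Tnr, a tenascin of the nervous system, stood at -0.46, -0.31 and 0.060 in pairs 1 to 3, and Tnxb, a tenascin of loose connective tissue, had a mean of 0.068 ± 0.16. Neither had 1 sign on all 4 arrays. Thbs1, thrombospondin 1, an activator of latent TGF-beta, stood at 0.19, 0.39 and -1.41 in pairs 1 to 3, so pair 3 was extreme as for Ccn1 but in the opposite direction. Smoc1 and Smoc2, secreted calcium-binding relatives of Sparc, had means of -0.30 ± 0.28 and 0.024 ± 0.050. Tgfbi, a TGF-beta-induced adhesion protein, had 0.094 ± 0.19. The median of the 8 gene means was 0.046, with 5 above 0, against a median of -0.00026 over all genes, of which 49.8% were above 0. The median of the 8 was -0.018 with arrays 1 and 2 turned.

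Of 5 measured fibrillar collagens, 3 had a larger mean than Tnc. Col1a2 had a mean of 1.03 ± 0.20, Col3a1 of 1.04 ± 0.19 and Col5a1 of 1.01 ± 0.45 (SD, n = 3 pairs each), each above 0 on all 4 arrays. These means became -0.12, -0.085 and -0.31 with arrays 1 and 2 turned, and the median of all 5 chains -0.12 against 1.01 as deposited. Col1a1, the partner chain of Col1a2 in type I collagen, stood at 0.057 ± 0.15 and Col5a2, the partner of Col5a1, at -0.0023 ± 0.33. In pair 3 these 3 positive chains had their smallest value, 0.80, 0.84 and 0.58, while Ccn1 had its largest. Clones of Col3a1 and of Col1a2 also differed, but not by pair as Tnc clones B and C did. Of the Col3a1 clones, 2 stood at 1.98 each and the rest at 0.20 and 0.014, and the Col1a2 clones stood at 1.60, 1.48 and 0.0058. In every pair the high clones were at 1.03 or more and the low ones at 0.36 or less.

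**Figure D3:**
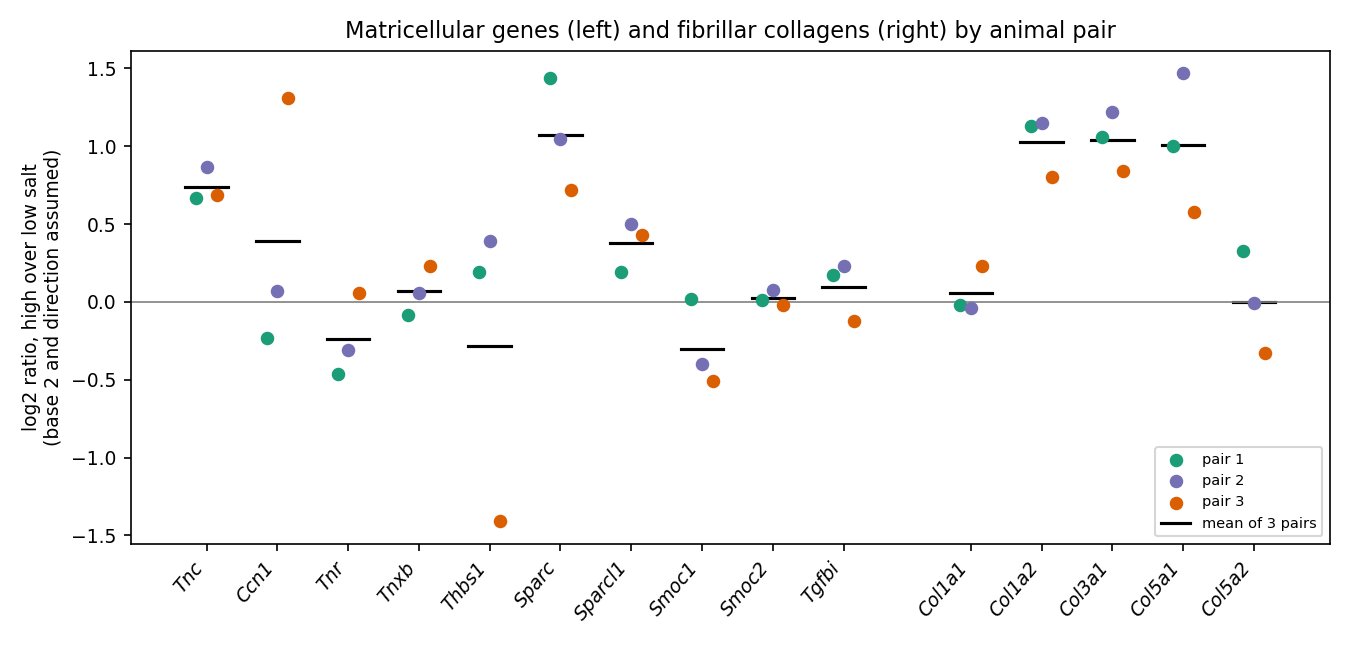
Log2 ratio of each matricellular gene and fibrillar collagen in each animal pair (points) with the mean of 3 pairs (bars), read as high over low salt. Tnc holds between 0.67 and 0.87, Ccn1 runs from -0.23 to 1.31, and Thbs1 drops to -1.41 in pair 3.

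Of 20 listed receptors for tenascin C or CCN1, 16 were measured and 13 had a mean above 0, against 49.8% of all genes. With arrays 1 and 2 turned, 7 of the 16 did. The median was 0.039, or 0.10 without pair 3 and -0.026 with arrays 1 and 2 turned. Itga9, the integrin subunit that binds the fibronectin repeats of tenascin C, had a mean of 0.28 ± 0.38 (SD, n = 3 pairs), from 4 clones. Itgb1, the beta subunit shared by many of these integrins, stood at 0.19, 0.19 and 0.18 in pairs 1 to 3, a small value that hardly varied. Itga6, the laminin-binding subunit through which CCN1 acts on fibroblasts, had 0.27 ± 0.071, and Itgb3, of the vitronectin receptor, 0.11 ± 0.18. With arrays 1 and 2 turned, these 4 means were -0.31, 0.0027, -0.072 and 0.037.

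Matrix partners of tenascin C had 6 of 9 genes measured and a median of 0.43, or -0.35 with arrays 1 and 2 turned. The median was 0.17 without pair 1 and 0.73 without pair 3, and pair 3 alone had -0.072. Fn1, fibronectin, stood at 0.50, 0.45 and 0.79 in pairs 1 to 3 and above 0 on all 4 arrays. Vcan, the proteoglycan versican, had a mean of 0.58 ± 0.40 and Hspg2, perlecan, of -0.0040 ± 0.15 (SD, n = 3 pairs). Lamc1, a laminin chain, stood at 0.96, 1.22, -0.29 and 0.17 on arrays 1 to 4, high only on the arrays with Cy3 on high salt. Its pair values were 0.96, 0.69 and -0.29. Pairs 1 and 3 were each read in a single dye orientation, so for Lamc1 pair and dye cannot be told apart.

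Genes that act upstream of Tnc had small means over pairs, although single genes lay far from 0 in single pairs, with opposite signs. The list median was 0.18 in pair 1, 0.18 in pair 2 and -0.14 in pair 3. Of 23 listed, 18 were measured and 13 had a mean above 0, against 49.8% of all genes. With arrays 1 and 2 turned, 6 of the 18 did. The median of the means was 0.095, or -0.13 with arrays 1 and 2 turned. Leaving out a pair gave 0.041 without pair 1, 0.0086 without pair 2 and 0.15 without pair 3. The 3 TGF-beta ligands, which induce Tnc in fibroblasts, had means of 0.11 ± 0.65 for Tgfb1, 0.28 ± 0.28 for Tgfb2 and 0.16 ± 0.048 for Tgfb3 (SD, n = 3 pairs), and the receptor gene Tgfbr1 had 0.12 ± 0.17. Tgfb1 had 0.62 in pair 1 and -0.62 in pair 3.

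The proteases and inhibitors that set the turnover of such matrix had 14 of 16 genes measured and a median of 0.085, or -0.0036 without pair 2 and 0.031 with arrays 1 and 2 turned. Mmp2, a gelatinase, had a mean of 0.51 ± 0.13 and Mmp14, its membrane-bound activator, of 0.15 ± 0.063, both above 0 on all 4 arrays. Mmp3, stromelysin, which cuts tenascin C, stood at -0.76, -0.64 and -0.91 in pairs 1 to 3, and Mmp9, another gelatinase, at 0.10 ± 0.32 (SD, n = 3 pairs). Mmp3 was at 0.00037 and Mmp2 at 0.24 with arrays 1 and 2 turned.

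The Hippo pathway controls Ccn1 through YAP and TAZ. Yap1, which encodes YAP, had a mean of -0.30 ± 0.39, with -0.74 in pair 3, and Wwtr1, which encodes TAZ, of 0.040 ± 0.17. Tead1, one of their DNA-binding partners, had -0.021 ± 0.037 and Lats1, a kinase that restrains YAP, -0.012 ± 0.22 (SD, n = 3 pairs). Of 15 measured YAP and TAZ targets other than Ccn1, 7 had a mean above 0, against 49.8% of all genes. Their median was -0.030, or 0.019 without pair 1, 0.048 without pair 2, -0.010 without pair 3 and -0.027 with arrays 1 and 2 turned. Amotl2, an angiomotin, stood at -0.17, -0.45 and 0.50 in pairs 1 to 3, and Lats2, a Hippo kinase, at -0.27, -0.069 and 0.11. Both had their highest value in pair 3, as Ccn1 did, but both also split by dye orientation, which Ccn1 did not. On arrays 1 to 4 Amotl2 stood at -0.17, -0.82, 0.50 and -0.074 and Lats2 at -0.27, -0.14, 0.11 and -0.00055. Each was lower on both arrays with Cy3 on high salt than on both with Cy5. Axl, a receptor tyrosine kinase, went the other way with 1.07, 0.65 and -0.23, and F3, tissue factor, had a mean of 0.036 ± 0.042.

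Other immediate-early genes lay mostly below 0. Of 16 measured, 13 had a negative mean, against 4065 of all 8106 genes. On all 4 arrays 10 were below 0, against 7.75% of all genes, and the median was -0.46. Egr1, a zinc finger transcription factor, stood at -3.30, -1.30 and -2.29 in pairs 1 to 3, Fos at -1.13, -0.34 and -0.72, and Atf3, a stress-induced factor, at -1.21, -0.62 and -1.59. In pair 3 these 3 genes were well below 0 where Ccn1 stood at 1.31. Jun, the partner of Fos, had a mean of 0.082 ± 0.27 (SD, n = 3 pairs). The list median was 0.072 with arrays 1 and 2 turned, where Egr1 was at 0.33, Fos at 0.13 and Atf3 at -0.21. This list and the collagens were drawn up with their values in these hearts partly known, so their counts are no independent evidence.

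**Figure D4:**
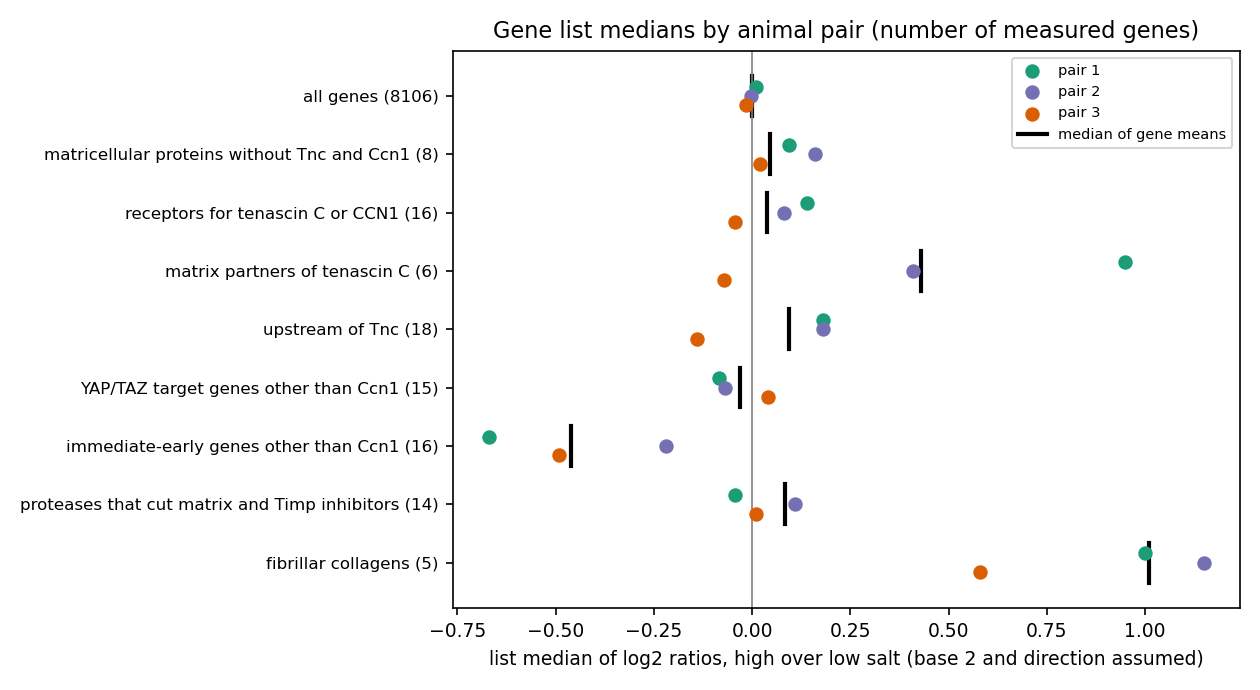
Median log2 ratio of the measured genes of each list in each animal pair (points) and the median of their means over pairs (bars), read as high over low salt, with the number of measured genes in brackets. The fibrillar collagens lie at 1.01, the immediate-early genes at -0.46 and all 8106 genes at -0.00026. With arrays 1 and 2 turned, not drawn, the collagens lie at -0.12 and the immediate-early genes at 0.072.

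Ventricle pieces hold several cell types, and in such bulk RNA fewer cells of a type and less RNA per cell cannot be told apart. Over all genes, 49.8% had a mean above 0, 7.01% were above 0 on all 4 arrays and 7.75% below 0 on all 4. Of 13 fibroblast markers 10 were measured, 7 with a mean above 0, 4 above 0 on all 4 arrays and 1 below 0 on all 4. The fibroblast list median was 0.12, and 4 of the 10 markers had a mean above 0 with arrays 1 and 2 turned. Endothelial markers had 6 of 11 measured, 3 above 0 and 2 above 0 on all 4 arrays, with a median of 0.071. Macrophage and leukocyte markers had 4 of 11 measured and a median of 0.050, and smooth muscle and pericyte markers 4 of 9 and 0.11. In each of these 2 lists 1 marker was above 0 on all 4 arrays, as was 1 adipocyte marker, with another below 0 on all 4. The 3 of 12 measured cardiomyocyte markers had a median of 0.054, the 5 of 6 adipocyte markers 0.18 and the 2 of 6 blood markers -0.019. A single atrial marker, Dkk3, was measured, at 0.49, and a single skeletal muscle marker, at -0.019. In the turned reading these medians were -0.034 for fibroblasts, -0.057 for endothelium, 0.078 for macrophages and leukocytes, -0.086 for smooth muscle and pericytes, 0.00097 for cardiomyocytes, -0.038 for adipocytes and 0.0070 for blood. The part of these cell types in the values of Tnc and Ccn1 was not tested.

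Likeness to each member was measured as the Euclidean distance between the log2 ratios on the 4 arrays, over all 8106 genes. The 5 genes nearest to Tnc were Tmsb10 (0.31) and Tmsb4x (0.46), which encode actin-binding thymosins, Cd34 (0.31), a surface protein of endothelial and progenitor cells, Vim (0.40), the filament of mesenchymal cells, and Itm2a (0.43), a membrane protein. Cd34 stands in the endothelial and Vim in the fibroblast marker list above. Their means lay between 0.60 for Cd34 and 0.81 for Vim. The 5 nearest to Ccn1 were Plekha7 (0.22), Hspa1b (0.43), Clcn1 (0.50), Adipoq (0.57) and Pla2g15 (0.61), each measured by 1 clone. Clcn1 encodes the chloride channel of skeletal muscle, Adipoq the fat cell hormone adiponectin and Pla2g15 a lysosomal phospholipase. Plekha7, a protein of adherens junctions, stood at -0.10, 0.0026, 1.43 and -0.010 on arrays 1 to 4, and Hspa1b, an inducible heat shock protein, at 0.041, 0.034, 0.99 and 0.0051. These profiles were flat except on array 3. Tnc and Ccn1 lay 1.58 apart, which placed Ccn1 at rank 3351 from Tnc.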

How the data were processed

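For every spot of an array the authors deposited a single log ratio between the dyes, assumed here to be log2. How these values were background-corrected, normalized and directed is not given in the sources used here. RNA was reverse transcribed with oligo(dT) and labelled with Cy3 or Cy5, per the labels' protocols. Of 17664 features, 17207 had values, and 736 of these, at 23 positions that carry no gene name in any of the 32 print blocks, were left out as likely control spots. Clones with 1 symbol were averaged per gene. Gene names came from the platform annotation, and 12555 of 12563 gene IDs were found in the RefSeq table of GRCm38.p6. Ratios per pair were tested against 0 over all genes and over all clones. The test used limma 3.58.1 in R 4.3.3 (lmFit, eBayes, Benjamini-Hochberg at 0.05). The fit was also run on simulated independent noise with known changes added. That noise lacked the correlation by dye orientation of these arrays, so the run cannot show how the fit behaves under it. Precision is limited by having only 4 arrays.

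The members and lists were chosen with earlier results of these data known. Genes named are every matricellular gene and fibrillar collagen measured, the first 4 measured of each other list in its written order, and the 5 nearest to each member. Dkk3 was named as the sole atrial marker measured. Alternatives were the turned arrays, 1 array for pair 2, 3 normalizations, the median of clones, equal weight for 4 arrays, each pair left out, the 736 features kept and robust eBayes. Promoter sequences are from RefSeq. A list of other regulators of Ccn1 is not reported here.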

Additional observations from a re-analysis of the deposited data

How the results depend on the processing

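With arrays 1 and 2 turned, Tnc stood at -0.039, and with the median of clones at 0.98, against 0.74 as reported. Leaving out a pair gave 0.68 to 0.78 for Tnc and -0.078 to 0.69 for Ccn1, whose other alternatives lay between 0.31 and 0.59. Tnc clone A stood at 0.049 and clone B at -0.40 with arrays 1 and 2 turned, and clone A at 1.22 after quantile normalization. No gene passed the adjusted threshold under any alternative run. Counts at an unadjusted p under 0.05 were 441 as reported, 1683 with arrays 1 and 2 turned and 145 to 851 with a pair left out, the low count without pair 2 and the high one without pair 3. The cause of these shifts was not tested. Of 88 recomputed medians of 8 lists, 13 moved by more than their SD over pairs, 5 of them in the turned reading, and 12 changed sign. Heart weight differed by 16.5 to 21.5 mg with a pair left out. The array ratios are already within-pair values. With the mice of 1 array as a replicate block, an alternative added after seeing the data, the heart weight difference was 18.3 mg (two-sided exact sign-flip permutation p = 0.25, the smallest that 3 pairs allow).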
